A study of Mus musculus with 2 samples.

Results

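The expression of 10 immediate early and AP-1 genes was examined in single cells of mouse ileal enteroids, which are crypt-derived epithelial organoids. The genes were taken as a list of known early response genes, *Fos*, *Fosb*, *Jun*, *Junb*, *Jund*, *Egr1*, *Klf6*, *Ier2*, *Ier3* and *Dusp1*, and all 10 were present among the 16665 genes listed over both libraries. The list was chosen with earlier results of these data known, so the shares of all genes given beside its counts are a description and not a test. There were 2 libraries. The control library is labelled wild type and treated with ethanol, whereas the methods of the study give *Taf4* lox/lox enteroids treated with 4-hydroxytamoxifen (4-OHT). The other library has a title that names KO organoids treated with 4-OHT, and is called here the library labelled Taf4IEC, after the study's name for these enteroids. By the methods of the study it came from *Taf4* lox/lox enteroids carrying VilCreERT2, after 3 days of 1 µM 4-OHT. VilCreERT2 is a tamoxifen-inducible recombinase driven by the epithelial *Villin* promoter. Both came from 4-month-old mice of mixed C57Bl6/129sv background, and the cells were freed with Accutase and sorted for viability before capture. *Taf4* codes for a subunit of TFIID, a complex of the basal transcription machinery. With 1 library per condition there was no replicate and no test between conditions, and genotype, treatment, culture and handling cannot be told apart. The 95% intervals given throughout cover counting error only.

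Immediate early genes are transcribed within minutes of a signal without new protein synthesis, largely through MAP kinases that act on serum response factor and its partners. *Fos* and *Jun* proteins form the dimeric factor AP-1, whereas *Egr1* and *Klf6* encode zinc finger factors and *Dusp1* a phosphatase that switches MAP kinases off. In the intestinal epithelium these genes are known to respond to growth factors and to injury, and in many tissues they also respond to the dissociation of cells.

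Promoter sequences of 300 bases, from 250 bases before to 50 bases after the transcript start given in the table, are shown for *Fosb* and *Jun*, lower in the library labelled Taf4IEC, for *Ier3*, higher there, and for *Fos*, the closest relative of *Fosb*. They are from RefSeq on GRCm38.p6 and are written along the strand of the gene, with the matches to the motifs below in capitals. *Fosb* lies on the minus strand (chr7:19309996-19310295), *Jun* on the minus strand (chr4:95052173-95052472), *Ier3* on the plus strand (chr17:35821463-35821762) and *Fos* on the plus strand (chr12:85473640-85473939).
Fosb: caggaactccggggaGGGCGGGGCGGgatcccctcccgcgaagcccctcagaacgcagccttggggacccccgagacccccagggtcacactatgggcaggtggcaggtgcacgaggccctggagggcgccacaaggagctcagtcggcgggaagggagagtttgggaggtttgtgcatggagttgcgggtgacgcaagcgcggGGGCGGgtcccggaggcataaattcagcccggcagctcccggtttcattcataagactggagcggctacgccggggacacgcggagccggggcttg
Jun: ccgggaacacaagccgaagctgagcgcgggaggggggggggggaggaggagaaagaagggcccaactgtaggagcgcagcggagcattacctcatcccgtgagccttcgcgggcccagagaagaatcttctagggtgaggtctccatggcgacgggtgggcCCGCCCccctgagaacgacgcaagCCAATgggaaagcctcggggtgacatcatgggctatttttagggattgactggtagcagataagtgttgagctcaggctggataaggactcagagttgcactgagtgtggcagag
Ier3: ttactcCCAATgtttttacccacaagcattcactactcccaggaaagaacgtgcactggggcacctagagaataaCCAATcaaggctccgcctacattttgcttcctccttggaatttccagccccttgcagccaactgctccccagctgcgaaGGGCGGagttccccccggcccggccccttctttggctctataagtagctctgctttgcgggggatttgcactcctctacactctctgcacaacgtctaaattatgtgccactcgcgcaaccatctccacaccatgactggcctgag
Fos: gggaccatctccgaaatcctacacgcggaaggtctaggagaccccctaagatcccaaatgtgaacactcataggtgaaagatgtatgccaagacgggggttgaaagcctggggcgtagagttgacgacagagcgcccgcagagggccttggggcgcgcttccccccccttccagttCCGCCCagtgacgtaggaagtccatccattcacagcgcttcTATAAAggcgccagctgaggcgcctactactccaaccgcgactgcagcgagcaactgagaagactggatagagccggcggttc

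The motifs were searched on both strands in the 8 promoters found in the table, all but those of *Egr1* and *Ier2*. GGGCGG was found in 6 of 8, *Fos*, *Fosb*, *Jun*, *Klf6*, *Ier3* and *Dusp1*, compared with 35.7% of 32851 promoters of the same length. *Fosb* held it at 3 places, 2 of which overlap. CCAAT was found in 4 of 8, *Jun*, *Junb*, *Klf6* and *Ier3*, compared with 37.4% of all promoters, and TATAAA in *Fos* and *Junb*, compared with 13.6%. The cyclic AMP response motif TGACGTCA was found in *Dusp1* alone, next to but not overlapping GGGCGG, and in 1.79% of all promoters. The AP-1 motif TGANTCA and the CArG box bound by serum response factor were found in none of the 8 windows, and in 7.81% and 1.63% of all promoters. A match describes these letters and is not a bound site, and sites outside these windows were not searched.

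The control library held 39947009 unique molecular identifiers (UMIs), each the count of 1 captured transcript end, in 2563 cells, and the library labelled Taf4IEC 24990128 in 1811 cells. Cells of the control were deeper (median of 16749 UMIs) than those of the library labelled Taf4IEC (2254), and cells under 2000 UMIs made up 17.3% and 49.1%. *Taf4* itself was at 0.0696 UMIs per 10000 in the control (278 UMIs) and at 0.0944 in the library labelled Taf4IEC (236 UMIs), thus not lower in the latter. Transcripts were read from their 3′ end, and whether the reads lie within the deleted part was not tested. Markers of cells outside the epithelium were near 0, with *Ptprc* at 0 UMIs in both libraries and the 10 markers summing to 0.00951 and 0.0320 UMIs per 10000. The libraries shared 2 cell barcodes.

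Over all cells, the early response genes had nearly the same summed level in both libraries, 9.51 UMIs per 10000 in the control and 9.63 in the library labelled Taf4IEC, but single genes moved apart in both directions. *Fosb* and *Jun* were lower by over 1.5-fold in the library labelled Taf4IEC and *Ier3* was higher by over 1.5-fold, whereas the other 7 genes stayed within 1.5-fold. The rule of size used here was a 1.5-fold difference in genes for which both libraries together gave 200 UMIs or more. By this rule 2 of 10 members were lower, compared with 7.47% of the 10002 genes tested, and 1 of 10 was higher, compared with 16.0%. The median log2 ratio of the members was -0.06 and that of all genes tested 0.16. When the ratios were centred on the median of all genes, *Ier2* and *Dusp1* also passed the rule, so that 4 members were lower and 1 was higher. The shares of all genes were not recomputed after centring.

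In the Fos family, *Fosb* (chromosome 7, 19302696 to 19310118 on GRCm38.p6) showed the largest difference of the 10 genes. It was at 0.257 UMIs per 10000 in the control (1027 UMIs) and at 0.0616 in the library labelled Taf4IEC (154 UMIs). The level was 4.17-fold lower there, with a log2 ratio of -2.06 (interval -2.31 to -1.82). *Fos* (chromosome 12, 85473890 to 85477274), the rapidly induced founding member of the family, was at 0.931 in the control (3719 UMIs) and at 0.764 in the library labelled Taf4IEC (1910 UMIs). Its log2 ratio was -0.28 (-0.36 to -0.20), and thus *Fosb* and *Fos* differed in the same direction but to an unequal extent.

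The Jun family members went in opposite directions. *Jun* (chromosome 4, 95049036 to 95052222), whose product is the classical partner of Fos, was at 1.88 UMIs per 10000 in the control (7521 UMIs) and at 0.837 in the library labelled Taf4IEC (2091 UMIs), with a log2 ratio of -1.17 (-1.24 to -1.10). *Jund* (chromosome 8, 70697739 to 70700616), which unlike *Jun* is expressed in unstimulated cells, was at 2.23 (8912 UMIs) and at 3.29 (8227 UMIs), with a log2 ratio of 0.56 (0.52 to 0.60), just inside the 1.5-fold rule. *Junb* (chromosome 8, 84976909 to 84978748), a weaker activator than *Jun*, was at 1.13 and 1.31, with a log2 ratio of 0.21 (0.15 to 0.28).

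Among the other genes, *Ier3* (chromosome 17, 35821713 to 35822911), which modulates apoptosis, was at 0.550 UMIs per 10000 in the control (2196 UMIs) and at 1.06 in the library labelled Taf4IEC (2637 UMIs), a 1.92-fold higher level with a log2 ratio of 0.94 (0.86 to 1.02). *Ier2* (chromosome 8, 84661331 to 84662852) was at 1.41 (5638 UMIs) and at 1.05 (2616 UMIs), with a log2 ratio of -0.43 (-0.50 to -0.36). *Egr1*, a zinc finger activator downstream of MAP kinases, was at 0.650 (2595 UMIs) and at 0.783 (1957 UMIs), with a log2 ratio of 0.27 (0.18 to 0.35). Both differences exceeded the counting error but not the 1.5-fold rule, and that of *Egr1* turned to -0.11 in cells thinned to 500 UMIs. *Klf6* (chromosome 13, 5861489 to 5870393) was at 0.375 and 0.420, with a log2 ratio of 0.16 (0.05 to 0.28), which turned to -0.065 in cells thinned to 5000 UMIs, to -0.046 with each cell weighted equally and to -0.021 with mitochondrial and ribosomal protein genes, *Gm42418* and *AY036118* left out of the total. *Dusp1* (chromosome 17, 26505591 to 26508472) was at 0.0876 (350 UMIs) and at 0.0608 (152 UMIs), with a log2 ratio of -0.53 (-0.81 to -0.25), and rested on the fewest molecules of the list.

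**Figure D1:**
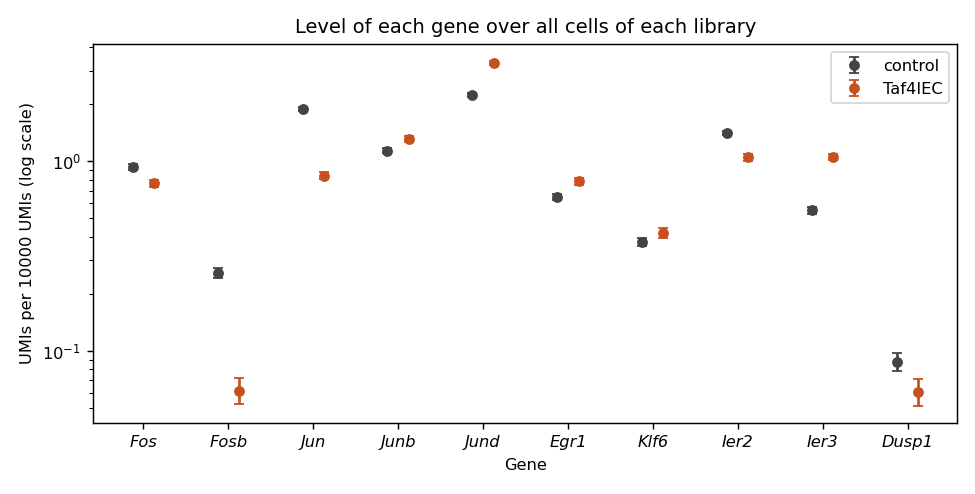
Level of the 10 genes in UMIs per 10000 UMIs (log axis) over all cells of the control (grey) and of the library labelled Taf4IEC (orange), with exact 95% Poisson intervals. Fosb drops from 0.257 to 0.0616 and Jun from 1.88 to 0.837, whereas Ier3 stands at 0.550 and 1.06 and Jund at 2.23 and 3.29.

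As the libraries differed in depth, the cells were divided by their number of UMIs. *Fosb* was lower in the library labelled Taf4IEC in each of the 4 depth bins. Its level in the control was 0.247 in cells under 2000 UMIs, 0.331 from 2000 to under 10000, 0.268 from 10000 to under 20000 and 0.246 at 20000 or more, and in the library labelled Taf4IEC 0.0522, 0.0486, 0.0642 and 0.0624. *Jun* was lower in each bin as well, from 1.42, 2.68, 2.12 and 1.69 in the control to 0.914, 1.20, 1.00 and 0.805. Thus 2 of 10 members were lower by over 1.5-fold in every bin, compared with 0.920% of the 10002 genes, and 0 were higher in every bin, compared with 2.83%. For these counts the minimum of 200 UMIs was applied over all cells and not within bins. Only 4 to 10 UMIs of *Fosb* were counted in each of the 3 shallower bins of the library labelled Taf4IEC, and under 2000 UMIs only 1 member, *Jund*, had 200 UMIs over both libraries. The log2 ratio of *Jun* in those shallowest cells was -0.63, with an interval of -1.13 to -0.13.

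*Jund* was higher in the library labelled Taf4IEC in every bin, with log2 ratios of 0.58, 0.46, 0.29 and 0.67 from the shallowest to the deepest cells. *Ier3* did not follow 1 direction. It was higher in 3 bins, with log2 ratios of 0.88 (0.29 to 1.51) under 2000 UMIs, 1.24 (0.85 to 1.65) from 2000 to under 10000 and 1.03 (0.93 to 1.13) at 20000 or more. From 10000 to under 20000 UMIs, where the library labelled Taf4IEC had 100 cells, it was at 0.580 in the control and 0.443 in the library labelled Taf4IEC, a log2 ratio of -0.39 (-0.76 to -0.03). *Egr1* was at 0.722 and 1.54 in that same bin (log2 ratio 1.09, interval 0.89 to 1.30), and at 1.26 and 1.00 from 2000 to under 10000 UMIs.

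**Figure D2:**
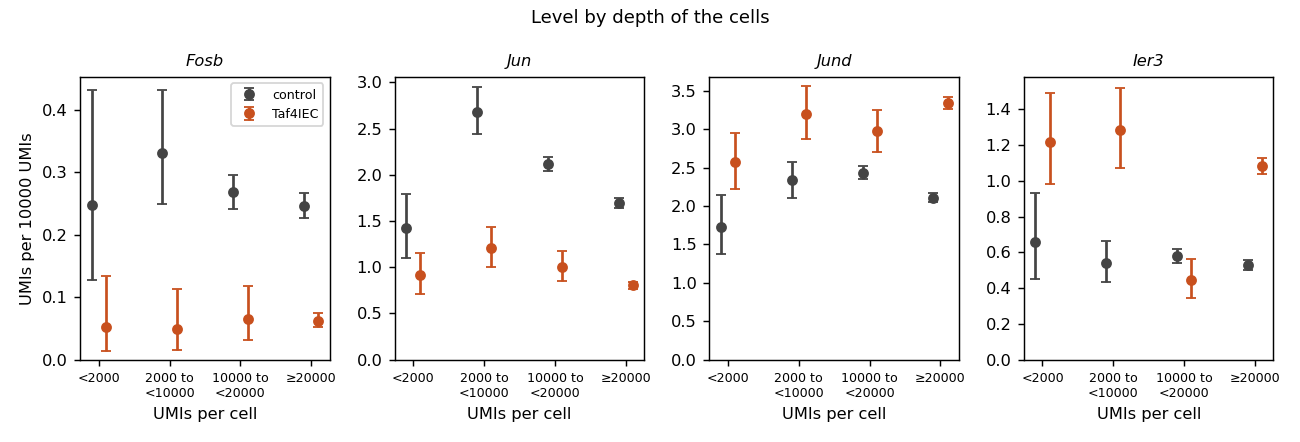
Level of 4 genes in UMIs per 10000 UMIs in cells grouped by their number of UMIs, for the control (grey) and the library labelled Taf4IEC (orange), with exact 95% Poisson intervals. Fosb and Jun lie lower and Jund lies higher in the library labelled Taf4IEC in all 4 bins, whereas Ier3 lies higher in 3 bins and at 0.443 against 0.580 from 10000 to under 20000 UMIs.

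To follow the genes by cell type, each library was clustered without the members and related early response genes, and the 27 clusters were named from marker genes. There were 1165 stem-like cells in the control and 456 in the library labelled Taf4IEC. The respective numbers were 258 and 198 for enteroendocrine-like cells, 281 and 184 for Paneth/goblet-like cells, and 233 and 308 for enterocyte-like cells. A tuft-like cluster of 15 cells was found only among the clusters of the library labelled Taf4IEC, and 626 and 650 cells stayed unnamed. Of the cells in stem-like clusters 0.515% of the control and 24.3% of the library labelled Taf4IEC had under 2000 UMIs. In cells with at least 2000 UMIs the ratios within the named classes had the same sign as without this limit for *Fosb*, *Jun*, *Jund* and *Fos* in all 4 classes.

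*Fosb* was lower in the library labelled Taf4IEC in all 4 classes, and its level was highest in Paneth/goblet-like cells of both libraries, although in the control not beyond the counting error of enteroendocrine-like cells. In stem-like cells it went from 0.252 (603 UMIs) to 0.0530 (50 UMIs), a 4.76-fold lower level with a log2 ratio of -2.25 (-2.70 to -1.83). In Paneth/goblet-like cells it went from 0.417 (201 UMIs) to 0.240 (73 UMIs), a log2 ratio of -0.80 (-1.20 to -0.40) that does not overlap with that of stem-like cells. Enteroendocrine-like cells had 77 and 17 UMIs and enterocyte-like cells 29 and 12 UMIs, under the 200 UMIs of the rule, with log2 ratios of -2.14 and -2.26.

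*Jun* was lower by over 1.5-fold in the library labelled Taf4IEC in each of the 4 classes. It went from 1.95 to 1.06 in stem-like cells, from 0.828 to 0.502 in enterocyte-like cells, from 2.09 to 0.957 in Paneth/goblet-like cells and from 2.75 to 0.860 in enteroendocrine-like cells. The log2 ratios were -0.88, -0.72, -1.13 and -1.68, and that of enteroendocrine-like cells (-1.91 to -1.46) lay below the intervals of the other 3. Enteroendocrine-like cells therefore had the highest *Jun* level of the control, while in the library labelled Taf4IEC their level did not differ from that of Paneth/goblet-like cells beyond counting error. Enterocyte-like cells had the lowest level in both libraries.

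*Fos* had the same order of classes in both libraries, Paneth/goblet-like over stem-like over enteroendocrine-like over enterocyte-like cells. In the control only stem-like and enteroendocrine-like cells did not differ beyond counting error. The highest class was 4.48-fold over the lowest in the control and 8.00-fold in the library labelled Taf4IEC. This wider range came with opposite ratios, since *Fos* was at 1.55 and 2.20 in Paneth/goblet-like cells (log2 ratio 0.50, 0.35 to 0.65) and at 0.790 and 0.404 in enteroendocrine-like cells (-0.97, -1.33 to -0.61). The ratio in Paneth/goblet-like cells shrank to 0.03 when both libraries were clustered together. Of the 668 *Fos* UMIs of this class in the library labelled Taf4IEC, 642 came from a cluster of 88 cells led by *Muc2* and *Zg16*. The control class was a cluster of 281 cells led by *Defa24* and *Spink4*. The part of this unlike make-up in the ratio was not tested. In stem-like cells *Fos* was at 0.901 and 0.804.

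*Ier3* was higher in the library labelled Taf4IEC in stem-like cells, at 0.461 in the control (1104 UMIs) and 1.16 (1095 UMIs), a log2 ratio of 1.33 (1.21 to 1.45). The ratio ranged from 0.39 to 2.04 over other ways of defining these cells. In enteroendocrine-like cells it was at 0.362 and 0.335, and in Paneth/goblet-like cells at 0.394 and 0.431, with intervals of the ratio that include 0. Enterocyte-like cells were at 0.850 and 1.34 (log2 ratio 0.65, 0.49 to 0.82), but this value rested on a cluster of 136 cells of the library labelled Taf4IEC. That cluster was led by *Tmem237* and *2210407C18Rik* and by no enterocyte marker. Without it the log2 ratio in enterocyte-like cells was -0.16, and 0 members were then higher in this class.

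*Jund* was higher in the library labelled Taf4IEC in all 4 classes, and varied little between them, by 1.39-fold in the control and 1.20-fold in the library labelled Taf4IEC. Its log2 ratios were 0.58 in stem-like cells, 0.51 in enterocyte-like cells, 0.48 in Paneth/goblet-like cells and 0.27 in enteroendocrine-like cells, none of them past 1.5-fold. *Junb* was highest in enterocyte-like cells of both libraries, at 1.72 and 1.67. In stem-like cells *Junb* was at 0.918 and 1.17, with a log2 ratio of 0.35 (0.25 to 0.46).

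*Egr1* kept the same order in both libraries, with no overlap of neighbouring intervals, enteroendocrine-like over Paneth/goblet-like over stem-like over enterocyte-like cells. Its levels were 1.5, 0.936, 0.573 and 0.280 in the control and 1.72, 1.34, 0.835 and 0.267 in the library labelled Taf4IEC. *Klf6* was highest in enterocyte-like cells of the control, at 0.658, and in Paneth/goblet-like cells of the library labelled Taf4IEC, at 0.711. The respective log2 ratios were -0.45 (-0.67 to -0.23) and 0.54 (0.27 to 0.82). *Ier2* was highest in stem-like cells, at 1.53 and 1.46, although in the control not beyond the counting error of enteroendocrine-like cells. In enteroendocrine-like cells it was lower in the library labelled Taf4IEC, from 1.41 to 0.880 (log2 ratio -0.68, -0.93 to -0.44). *Dusp1* had under 200 UMIs in each class, and went from 149 to 27 UMIs in stem-like cells (log2 ratio -1.12, -1.77 to -0.52) and from 22 to 5 in enteroendocrine-like cells.

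By class, 2 of 9 members tested were lower by over 1.5-fold in stem-like cells (*Fosb* and *Jun*, compared with 6.04% of all genes tested), 1 of 8 in enterocyte-like cells (*Jun*, 4.92%), 2 of 9 in Paneth/goblet-like cells (*Fosb* and *Jun*, 9.35%) and 3 of 6 in enteroendocrine-like cells (*Fos*, *Jun* and *Ier2*, 4.37%). Higher by over 1.5-fold was *Ier3*, 1 of 9 in stem-like cells (13.1%) and 1 of 8 in enterocyte-like cells (7.59%), and 0 members in Paneth/goblet-like (11.0% of all genes tested) and enteroendocrine-like cells (14.9%). The median log2 ratio of the members tested was 0.13 in stem-like cells, -0.17 in enterocyte-like cells, 0.13 in Paneth/goblet-like cells and -0.46 in enteroendocrine-like cells, whereas that of all genes tested was 0.18, 0.04, 0.01 and 0.25. Whether the ratios differ between classes was not tested.

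**Figure D3:**
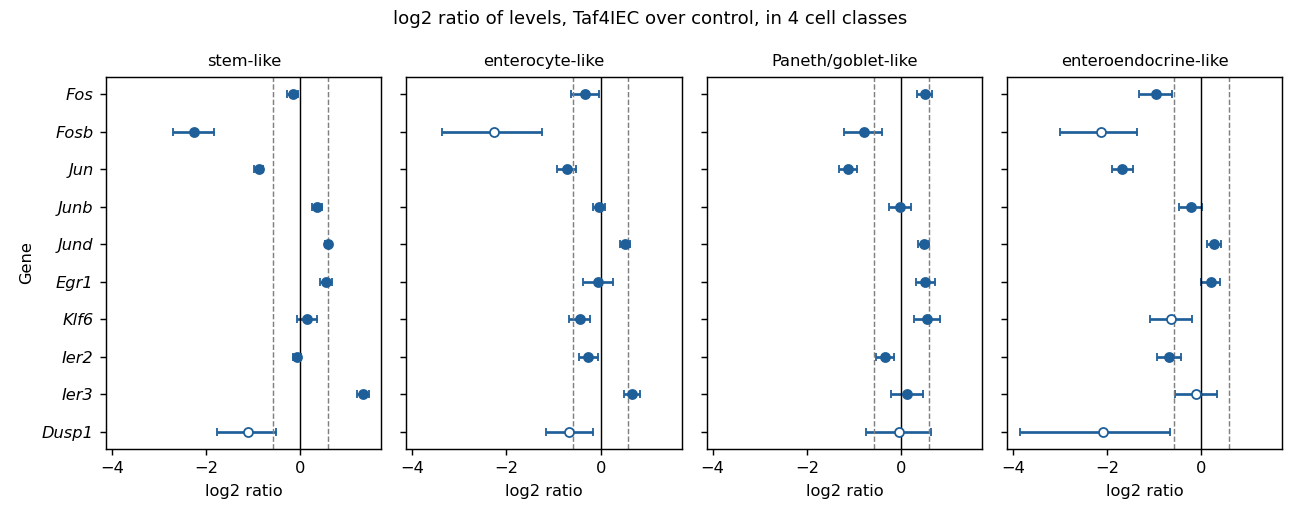
log2 ratio of the level in the library labelled Taf4IEC over the control for the 10 genes in 4 cell classes, with exact 95% intervals. Dashed lines mark 1.5-fold and open circles genes with under 200 UMIs in the class. Jun lies left of the dashed line in all 4 panels, Ier3 right of it in stem-like and enterocyte-like cells, and Fos at 0.50 in Paneth/goblet-like and -0.97 in enteroendocrine-like cells.

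Clusters within a class also differed. Among the 5 stem-like clusters of the control, *Ier3* was at 0.304 to 0.520 in 4, and at 1.12 in the cluster of 141 cells led by *Sprr1a*, with *Anxa1* also among its leading genes. Its level was 1.15 in the unnamed control cluster of 189 cells, led by *Nupr1*. In the library labelled Taf4IEC the stem-like cluster of 187 cells, with *Lgr5*, *Olfm4* and *Anxa1* among its leading genes, was at 1.37, the stem-like cluster of 183 shallow cells at 1.05 and the one of 71 cells led by cell cycle genes at 0.630. The highest *Ier3* level of the 27 clusters was 1.97, in the enterocyte-like cluster of 136 cells described above. The other enterocyte-like cluster of that library, of 172 cells, was at 0.759, close to the 0.856 of the control cluster of 212 enterocyte-like cells.

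*Fos* peaked at 2.32 in the Paneth/goblet-like cluster of 88 deep cells of the library labelled Taf4IEC, led by *Muc2* and *Zg16*. It was at 0.940 in the other Paneth/goblet-like cluster of that library, of 96 shallow cells led by the defensin genes *Defa30* and *Defa22*. These clusters thus differed in depth and in leading genes, and the part of each was not tested. An unnamed cluster of 65 cells of that library, led by *Ly6d* and *Areg*, came next at 2.03, and had *Egr1* at 1.48 and *Klf6* at 0.773. *Jun* was at 1.49 to 2.61 in the 5 stem-like clusters of the control. Apart from a cluster of 15 cells at 4.25 (22 UMIs), it was at 0.476 to 1.08 in those of the library labelled Taf4IEC. An unnamed cluster of 100 shallow cells of that library, led by the nuclear RNA *Gm26917*, stood apart with *Jun* at 3.95 (75 UMIs) and *Junb* at 3.53. The cluster of 15 cells, led by *Gm26917* and histone genes, had *Jund* at 8.69 (45 UMIs). The part of low depth and of these RNAs in the values of both clusters was not tested.

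**Figure D4:**
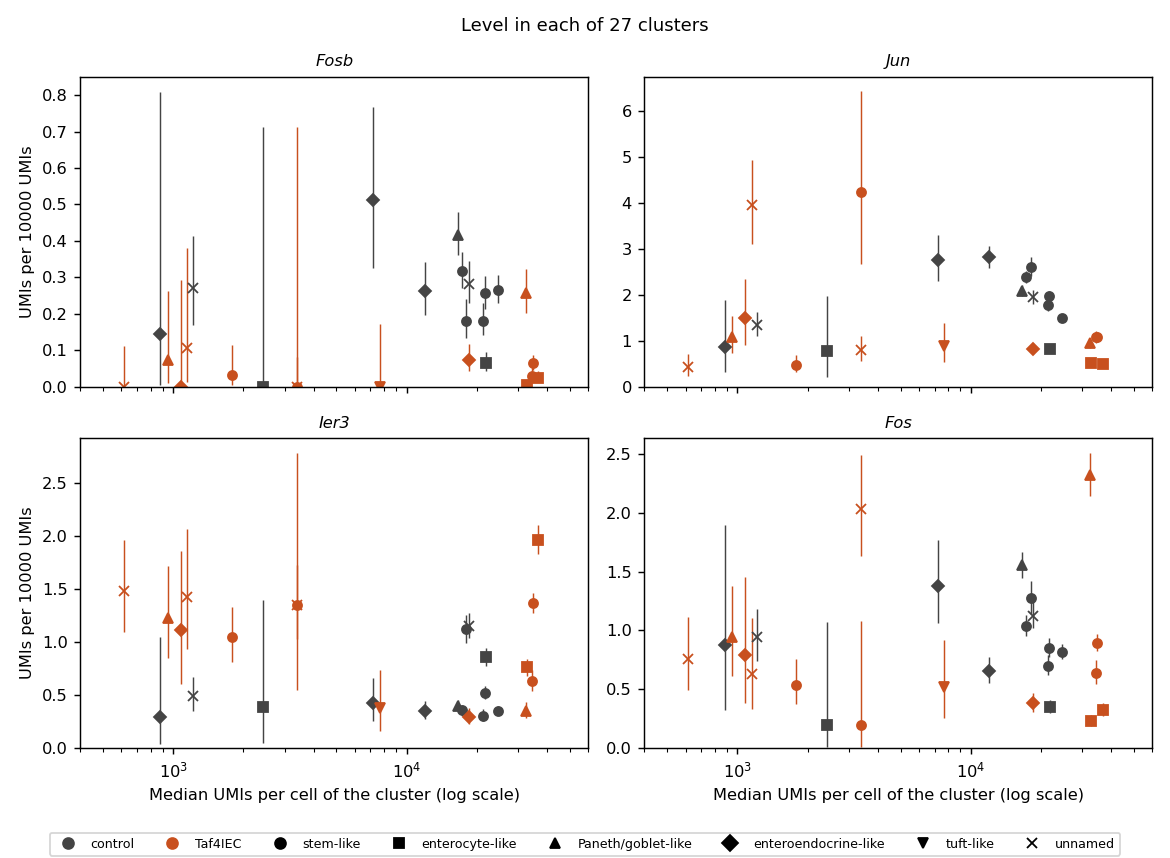
Level of 4 genes in UMIs per 10000 UMIs in each of the 27 clusters, against the median UMIs per cell of the cluster (log axis), with exact 95% Poisson intervals. Grey is the control, orange the library labelled Taf4IEC, and the symbol gives the class. Fosb lies low in most clusters of the library labelled Taf4IEC, Jun exceeds 3 only in 2 clusters of low depth, Ier3 peaks at 1.97 in an enterocyte-like cluster and Fos at 2.32 in a Paneth/goblet-like cluster.

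Across the 27 clusters, the levels of the members varied together only in part. As a description over clusters that share library, depth and clustering, the pair with the highest correlation was *Jund* and *Klf6* (Pearson's r = 0.67), followed by *Dusp1* and *Klf6* (0.63), *Junb* and *Klf6* (0.61), *Fos* and *Ier2* (0.60) and *Fos* and *Fosb* (0.58). *Fos* and *Jun* had an r of 0.22. The lowest r was that of *Fosb* and *Ier3*, at -0.50. Among the genes with at least 200 UMIs, those most like *Fosb* were *Stc2* (0.84), *Fermt3* (0.82) and *Bex1* (0.80), and those most like *Jun* were *Eif3j1* (0.83), *Slc7a2* (0.82) and *Chrm3* (0.74). *Junb* was closest to another early response gene, *Ier5* (0.87), and to *Klf5* (0.85) and *Nr3c1* (0.82).

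The genes most like *Ier3* were *Ces2g* (0.81), *Areg* (0.80), which encodes the growth factor amphiregulin, and *Abcb1a* (0.79). Those most like *Fos* were *Pabpc1* (0.76), *Ttr* (0.74) and *Itga2* (0.73), and those most like *Egr1* were *Slc15a4* (0.84), *Gatad2b* (0.81) and *Zfp687* (0.80). *Jund* was closest to *Rap2b* (0.84), *Dnajc16* (0.83) and *Ppm1b* (0.83), *Klf6* to *Slc44a3* (0.79), *Elmo3* (0.77) and *March7* (0.76), *Ier2* to *Hmces* (0.86), *Trmt112* (0.84) and *Mbd3* (0.84), and *Dusp1* to *Aspg* (0.79), *Nr3c2* (0.78) and *Agrn* (0.78). Over the 20 clusters with a median of at least 2000 UMIs the values for the genes named ranged from 0.66 to 0.94.

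Early response genes are often transcribed in bursts, so their spread over single cells was measured after each cell was thinned to 5000 UMIs, which left 1988 control and 758 Taf4IEC-labelled cells. A variance equal to the mean, a ratio of 1, is what counting alone gives. In the control the ratio was highest for *Ier3*, at 2.07, followed by *Jun* at 1.75, *Fos* at 1.68 and *Egr1* at 1.61. In the library labelled Taf4IEC it was 2.44 for *Fos* and for *Egr1*, 2.35 for *Ier3* and 1.85 for *Jun*. *Ier2* at 1.15 and 1.39 and *Jund* at 1.21 and 1.5 were low in the control. For an equal relative spread the excess over 1 grows with the mean, so genes of unlike level cannot be ranked by this ratio. *Dusp1* was at 1.03 and 1.05, but its mean was only 0.0423 and 0.0330 UMIs per cell. *Fosb*, with means of 0.134 and 0.0356, was at 1.45 and 1.41.

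The 5% of cells with most UMIs of *Fos* held 33.9% of its UMIs in the control and 45.0% in the library labelled Taf4IEC, where counting noise alone gives 23.4% and 26.8%. The 5% of cells with most UMIs of *Ier3* held 49.4% and 41.1% of the UMIs of that gene, compared with 30.7% and 22.5%. Within classes, *Fos* reached a ratio of 2.89 and *Egr1* 3.42 in 96 Paneth/goblet-like cells of the library labelled Taf4IEC, and *Ier3* 2.41 and 2.44 in enterocyte-like cells of the control and of the library labelled Taf4IEC. In the 96 cells, the cell with most UMIs of the gene held 12 of 130 for *Fos* and 11 of 69 for *Egr1*. In the same cells *Jun* was at 2.89 and *Ier3* at 2.73, the latter on 19 UMIs. Thus a minority of cells held more of the UMIs of these genes than counting noise alone gives, which was not particular to *Fos*, *Egr1* and *Ier3*. Over all thinned cells of a library, the highest r of any pair of members was 0.25 in each library, for *Fos* and *Egr1*. Within classes the highest values were 0.55 for *Jun* and *Klf6*, 0.53 for *Jun* and *Junb* and 0.53 for *Jun* and *Egr1*, all in the 96 Paneth/goblet-like cells of the library labelled Taf4IEC, and in the control the highest was 0.44, for *Fos* and *Fosb* in 199 enterocyte-like cells. These values of r describe sparse counts of cells from the same library. In the 96 cells *Jun* had 57 UMIs, up to 10 in a single cell, and *Junb* had 45, up to 7. In the 199 cells *Fosb* had 7 UMIs. The part of single cells in these values was not tested.

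**Figure D5:**
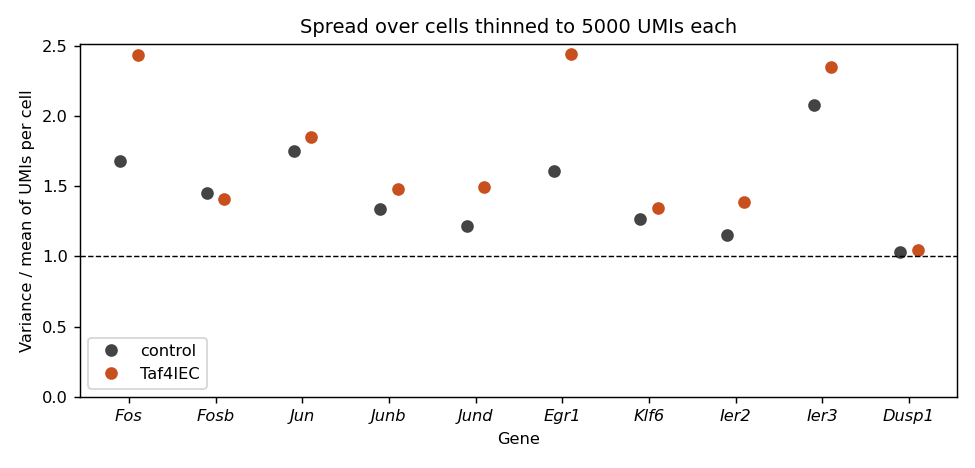
Variance of the UMIs per cell divided by their mean, for the 10 genes in cells thinned to 5000 UMIs each, for 1988 control cells (grey) and 758 cells of the library labelled Taf4IEC (orange). The dashed line at 1 is counting noise. Ier3, Fos and Egr1 reach 2.35 to 2.44 in the library labelled Taf4IEC. Dusp1, with a mean of 0.0423 and 0.0330 UMIs per cell, lies near the line.

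Other genes of the same pathway were counted by the same rule. Of 28 further immediate early genes, 21 had at least 200 UMIs, of which 1 was higher by over 1.5-fold in the library labelled Taf4IEC and 2 were lower, compared with 16.0% and 7.47% of all genes tested. *Dusp6*, a phosphatase of ERK kinases, was at 0.0606 and 0.147 (log2 ratio 1.28, 1.04 to 1.52). *Cyr61*, which encodes a matricellular protein, was at 0.159 and 0.0796 (-0.997, -1.23 to -0.77), and *Ppp1r15a*, a stress-induced phosphatase subunit, at 0.139 and 0.0752 (-0.89, -1.13 to -0.64). *Ier5*, *Zfp36*, *Klf4* and *Gadd45b* were within 1.5-fold, with log2 ratios of 0.17, 0.25, -0.18 and -0.18. The median log2 ratio of this list was 0.11, near the 0.16 of all genes. In stem-like cells 17 of these genes were tested, of which *Btg2*, *Mcl1*, *Dusp4* and *Dusp6* were higher and *Klf4* and *Ppp1r15a* were lower, compared with 13.1% and 6.04% of all genes tested there. In Paneth/goblet-like cells 1 of 10 tested was higher (*Zfp36l1*) and 0 were lower, compared with 11.0% and 9.35% of all genes. In enteroendocrine-like cells 1 of 12 was higher (*Klf10*) and 2 were lower (*Ier5* and *Klf4*), compared with 14.9% and 4.37%. In enterocyte-like cells 0 of 9 tested were past 1.5-fold, compared with 7.59% higher and 4.92% lower. In unnamed cells, for which no share of all genes is given, 1 of 8 tested was higher (*Btg2*) and 2 were lower (*Klf4* and *Gadd45b*).

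Of 10 other AP-1 proteins 7 were in the files and 5 were tested. Of these 1 was higher and 0 were lower, compared with 16.0% and 7.47% of all genes. The higher gene was *Mafk*, a small Maf protein (0.0448 and 0.0828, log2 ratio 0.89, 0.59 to 1.18). *Fosl2*, a relative of *Fos*, was at 0.265 and 0.305, and *Atf3*, a stress-induced partner of Jun, at 0.0976 and 0.0860. Among 13 kinases and transcription factors upstream 11 were tested and 0 were past 1.5-fold over all cells in either direction, where 16.0% of all genes were higher and 7.47% lower, with *Srf* at 0.0879 and 0.0884, *Mapk8*, a kinase of Jun, at 0.161 and 0.213, and *Mapk3* at 1.04 and 1.32. Within classes *Elk4* was higher in enterocyte-like cells, 1 of 8 tested, compared with 7.59% of all genes. *Creb1* was higher in enteroendocrine-like cells, 1 of 6, compared with 14.9%. Of 10 heat shock genes 8 were tested and 0 were past 1.5-fold over all cells, against the same shares of all genes, with *Hspa1b* at 0.0613 and 0.0448 and *Dnajb1* at 0.262 and 0.254. Within classes *Hspd1* and *Hspe1*, mitochondrial chaperones, were lower in Paneth/goblet-like cells, 2 of 5 tested, compared with 9.35% of all genes. *Hspe1* was lower in enteroendocrine-like cells, 1 of 5, compared with 4.37%. *Hsp90aa1* was higher in enterocyte-like cells, 1 of 6, compared with 7.59%. *Dnaja1* and *Hspa8* were higher in unnamed cells, 2 of 5, with no share of all genes given. Of the other AP-1 proteins, *Atf3* was lower in enterocyte-like cells, 1 of 3 tested, compared with 4.92% of all genes. *Mafg* was higher in Paneth/goblet-like cells, 1 of 2, compared with 11.0%.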

How the data were processed

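The deposited values are counts of UMIs per gene and cell without normalization. The authors aligned the reads to mm10 with Cell Ranger 3.1 and filtered the cells. Those given held 269 to 5997 genes and up to 15.0% mitochondrial UMIs. No doublet caller was run here. UMIs were summed over the cells of a library, depth bin or class and given per 10000 UMIs of that selection, with exact Poisson intervals, and log2 ratios with exact conditional binomial intervals (Python 3.11.15, scipy 1.17.1). UMIs mark molecules at their 3′ end, so levels were not divided by length. Each library was clustered with Seurat 5.3.0 on 1978 and 1977 variable genes, 20 components and a clustering resolution of 0.9, with the UMI count and mitochondrial share regressed out. A cluster took the class with most markers at 1.5 times the mean level of the libraries, at least 3 of them with at least 10 UMIs each, subject to conditions on its 10 leading genes. The named genes are the 10 members, the related lists, the markers and the 3 genes most like each member by Pearson's r over log2(UMIs per 10000 + 0.1). Genes that lead a cluster were chosen for naming once their values were known. The members and lists were chosen with earlier results of these data known. Only the intervals of the log2 ratios were tested on simulated data, which were Poisson counts without the further spread between cells seen here. Clustering, naming of classes, spread, likeness and the motif search were not tested on simulated data. A replicate test, such as those on counts across samples, needs more than 1 library per group and was not made. Promoters and gene positions are those of RefSeq on GRCm38.p6, and positions of *Egr1* are not given.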

Additional observations from a re-analysis of the deposited data

Results flagged for a closer look

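For 2 genes the log2 ratio of the library labelled Taf4IEC over the control pointed in opposite directions in 2 cell classes, with both intervals away from 0. *Fos* was at 0.50 in Paneth/goblet-like cells and -0.97 in enteroendocrine-like cells, a difference of 1.47. *Klf6* was at 0.54 in Paneth/goblet-like cells and -0.45 in enterocyte-like cells, a difference of 0.99. These differences were not tested, since each class holds 1 library per condition. Most *Fos* and *Klf6* UMIs of Paneth/goblet-like cells came from a cluster led by *Muc2* in the library labelled Taf4IEC. In the control they came from a cluster led by *Defa24*. *Klf6* was at 0.742 in the former and at 0.398 in the other Paneth/goblet-like cluster of the library labelled Taf4IEC. The part of this make-up was not tested. The ratio in Paneth/goblet-like cells ranged from 0.03 to 0.50 for *Fos* and from 0.11 to 1.26 for *Klf6* over the other ways of defining the cells, and the ratio of *Klf6* in enterocyte-like cells from -0.45 to 0.08.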

How the results depend on the processing

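No paired analysis was possible because there was 1 library per group. Over all cells, *Fosb*, *Jun* and *Ier3* kept their direction and stayed past 1.5-fold under all 10 alternatives, with log2 ratios from -2.73 to -1.19, from -1.35 to -1.05 and of at least 0.76. The count of lower members rose from 2 to 4 with *Ier2* and *Dusp1* when mitochondrial, ribosomal protein, *Gm42418* and *AY036118* transcripts were left out of the total, when ratios were centred, and when cells were thinned to 500 UMIs. It rose to 3 with *Dusp1* when the 5% deepest cells or the 1% of cells with most UMIs of the gene were left out and when each cell was weighted equally, and so did the count in every depth bin with the reduced total. Thinned to 500 UMIs, 2 members were higher, with *Jund*. The ratio of *Klf6* turned in 3 and that of *Egr1* in 1 of the 10 alternatives, while neither passed the rule. Without the minimum of 200 UMIs, 3865 genes were higher and 1672 lower, in place of 1598 and 747. In bins of genes detected, 1 member (*Ier3*) was higher in every bin in place of 0. For the counts of members under these alternatives the shares of all genes were not recomputed.

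The classes depended on the clustering, and the shares of all genes were not recomputed for the counts that follow. In stem-like cells 2 members were higher in place of 1 at resolutions of 0.5 and 1.4, with 30 principal components, with the members among the variable genes, with both libraries clustered together, without the condition on leading genes, and, as added after seeing the data, with clusters lacking a marker of their class among the leading genes left unnamed. With a marker fold of 2, *Ier3* there was at 0.39, inside the rule, and *Egr1* was the 1 higher member. The number of stem-like cells of the library labelled Taf4IEC ranged from 71 to 556. In enterocyte-like cells 0 members were higher in all alternatives except those that dropped the condition on leading genes or thinned the cells to 2000 UMIs. The log2 ratio of *Ier3* there was -0.13 at resolution 0.5, -0.20 at 1.4, -0.013 with 10 and -0.10 with 30 principal components, -0.20 with the members among the variable genes, and -0.16 with a marker fold of 2 or with clusters lacking a leading marker unnamed. In these cells 2 members were lower in place of 1 (with *Fos*) with 10 or 30 principal components, a marker fold of 2 or clusters lacking a leading marker unnamed, and 3 (with *Fos* and *Ier2*) at resolution 1.4 and with the members among the variable genes. In Paneth/goblet-like cells 1 member was higher in place of 0 with 10 principal components and with classes from marker UMIs per cell, and 2 were higher in cells thinned to 2000 UMIs. *Egr1* in unnamed cells, at 0.66, turned to -0.66 at resolution 1.4, -0.55 with the members among the variable genes, -0.016 with a marker fold of 2, -0.69 in cells thinned to 2000 UMIs and -0.0042 with clusters lacking a leading marker unnamed. The cause was not tested. *Jun* stayed lower by over 1.5-fold in all 4 named classes under all 11 alternatives. Depth limits *Dusp1*, and *Fosb* outside stem-like and Paneth/goblet-like cells.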
